A study of Mus musculus with 16 samples.

Results

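The genes described here encode enzymes of drug and xenobiotic metabolism: cytochrome P450s of families 1 to 4, carboxylesterases of groups 1 and 2, flavin-containing monooxygenases, UDP-glucuronosyltransferases and sulfotransferases. They were taken by gene symbol from the array's annotation (Cyp1 to Cyp4, Ces1, Ces2, Fmo, Ugt1, Ugt2 and Sult, without the club cell gene Cyp2f2), with the brightest probe per gene. They were then selected on a mean log2 intensity above 8 over all 16 arrays. Of 127 measured genes with such a symbol, 37 passed, out of 20863 genes tested on the array. They are 2 of 3 Cyp1 genes, 11 of 45 Cyp2, 1 of 8 Cyp3, 7 of 20 Cyp4, 4 of 8 Ces1, 4 of 7 Ces2, 3 of 7 Fmo, 4 of 17 Sult, 1 of 3 Ugt1 and 0 of 9 Ugt2.

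Messenger RNA of whole lungs was measured on 1-colour Agilent arrays. The groups were bleomycin plus LNA-miR-199a-5p (5 arrays), bleomycin plus LNA-control (5 arrays), PBS plus LNA-miR-199a-5p (3 arrays) and PBS plus LNA-control (3 arrays). All mice were C57BL/6 animals aged 9 to 12 weeks, and every one received an oligonucleotide of locked nucleic acid (LNA) intratracheally, 5 mg per kg each time, 4 days and 2 days ahead of bleomycin at 1 unit/kg or of PBS, then once more 4 days after it. Bleomycin damages DNA and is used to injure the lung and bring on fibrosis, and the study asked what silencing miR-199a-5p does under it. The day of collection is not given in the labels used here. The labels number the arrays of a group without saying that each is a separate animal, so p-values measure the spread between these samples, which may be partly technical.

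Drug metabolism runs in stages. Phase 1 enzymes (P450s, flavin-containing monooxygenases and carboxylesterases) oxidise or hydrolyse a compound, and phase 2 enzymes (sulfotransferases, glucuronosyltransferases) attach a polar group so that it can be excreted. The liver is the main site, but the rodent lung is rich in its own forms, in club cells, alveolar type 2 cells and endothelium, which act on inhaled compounds and on fatty acids, eicosanoids and steroids.

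The mature microRNA against which the LNA was directed is shown because it defines the treated groups. Its seed, bases 2 to 8, is in capitals. The sequence is from RefSeq, with one copy at chr1:162217844-162217866 on the plus strand (Mir199a-2) and another at chr9:21496537-21496559 on the minus strand (Mir199a-1) in GRCm38.p6.
mmu-miR-199a-5p: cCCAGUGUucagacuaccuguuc

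Some arrays stood apart in tissues other than lung parenchyma. A list of 7 thymocyte markers averaged 8.69 and 9.44 on replicates 1 and 4 of bleomycin plus LNA-control, against 6.49 to 6.83 on every other array, and these are called the thymocyte-rich arrays. Fat markers were lowest on replicate 3 of both PBS groups, at 9.15 with LNA-miR-199a-5p and 9.24 with LNA-control, against 10.20 to 11.50 elsewhere, and squamous epithelium markers were lowest there too; these are called the fat-poor PBS arrays. Liver markers averaged 6.30 to 6.98 on all arrays, near the bottom of a scale that runs from 4.61 to 18.32. RNA integrity numbers ran from 8 to 10 in bleomycin plus LNA-miR-199a-5p, 7 to 9 in bleomycin plus LNA-control, 8 to 9 in PBS plus LNA-miR-199a-5p and 8 to 9 in PBS plus LNA-control. Counts of called genes are given with and without the thymocyte-rich and the fat-poor PBS arrays, and single-gene results only where stated.

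With LNA-control, bleomycin lowered 14 of the 37 genes and raised none. The largest falls were in Cyp1a1, Fmo1, Cyp4b1 and Fmo2, and they took in P450s, monooxygenases, esterases and sulfotransferases. Over all genes tested, 7.9% were called lower and 9.6% higher in this comparison (limma, Benjamini-Hochberg adjusted p under 0.05). Such shares, here and below, are over genes of every level, with a median gene mean of 8.47, while the 37 were selected above 8. With the genes under that median left out of the fit, 13 of 31 were called lower. In that fit 2763 of all genes left were called, higher or lower. The median change of the 37 genes was -0.30 on the log2 scale, against 0.00 over all genes, with 31 negative and 6 positive values. Because whole lung was measured, fewer cells of a type and less RNA per cell cannot be told apart. Without the thymocyte-rich arrays 10 genes were called lower and 0 higher, and Ces1d, Cyp4f15, Fmo5 and Sult1a1 no longer passed. Calls over all genes went from 3651 to 2258.

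With LNA-miR-199a-5p, bleomycin lowered 2 of the genes, Cyp1a1 and Cyp2r1, and raised 5, Cyp2e1, Sult2b1, Sult5a1, Cyp4f16 and Cyp4f18. Over all genes 6.04% were called lower and 7.31% higher. The median change was 0.04, against 0.01 over all genes. The bleomycin effects with LNA-miR-199a-5p and with LNA-control share no arrays. Without the 2 fat-poor PBS arrays Cyp2e1 alone was called in this comparison, and leaving out 1 array (of the LNA-miR-199a-5p arrays, replicate 4 or 5 after bleomycin or any after PBS) left 2 to 4 genes. With the RNA integrity number as a covariate 2 genes were called, Cyp2e1 and Cyp1a1. Calls over all genes were 791 without the fat-poor PBS arrays, 1186 to 1885 in those fits without 1 array and 1162 with this covariate, against 2786 with none of these changes.

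Between the bleomycin lungs, 23 of the 37 genes were higher with LNA-miR-199a-5p than with LNA-control and 2 were lower, Cyp2u1 and Cyp2r1. The background was 13.4% of all genes called higher and 11.4% called lower. The median difference was 0.59, against 0.02 over all genes, and 32 of the 37 values were positive. This comparison uses the same bleomycin arrays with LNA-control as the first one, so a low value on those arrays moves both. Without the thymocyte-rich arrays 17 genes were called higher and 0 lower, and with the RNA integrity number as a covariate 20 higher and 0 lower. Calls over all genes were 2356 and 2981 in these settings, against 5188 with all arrays and no covariate.

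In PBS lungs the LNA-miR-199a-5p arrays differed from the LNA-control arrays for 0 of the 37 genes by limma's test. Changes ran from -0.24 to 0.48, and the gene at the upper end, Ces2e (0.48 ± 0.12, adjusted p = 0.324), was the 1 gene with an unadjusted p under 0.05. Of all genes 0.0336% were called higher and 0.0144% lower. With array weights in limma 1 of the 37 genes passed, where 394 of all genes did, against 10 in the fit without weights.

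The bleomycin effect differed between the LNAs, by the interaction term of the model, for 10 of the genes, all with the higher value under LNA-miR-199a-5p. They were Cyp2e1, Fmo1, Cyp2d11, Fmo2, Sult5a1, Sult1a1, Ces1e, Ces1f, Ces1d and Cyp2j9. The background was 3.07% of all genes with a positive and 3.94% with a negative interaction. The call for Fmo1 and Cyp2e1 held without the thymocyte-rich arrays and without the fat-poor PBS arrays, and Fmo2 passed without the thymocyte-rich arrays, where 3 genes passed in all. Without the fat-poor PBS arrays 2 passed, and leaving out any 1 PBS array, or replicate 1, 4 or 5 of bleomycin plus LNA-control, left 3 to 6. In those fits without 1 array, 632 to 1045 of all genes passed. With the RNA integrity number as a covariate 5 passed, and Ces1d, Ces1e, Cyp2j9, Sult1a1 and Sult5a1 did not. Over all genes, 1462 passed with all arrays and no covariate. The number was 525 without the thymocyte-rich arrays, 513 without the fat-poor PBS arrays and 733 with the covariate.

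**Figure D1:**
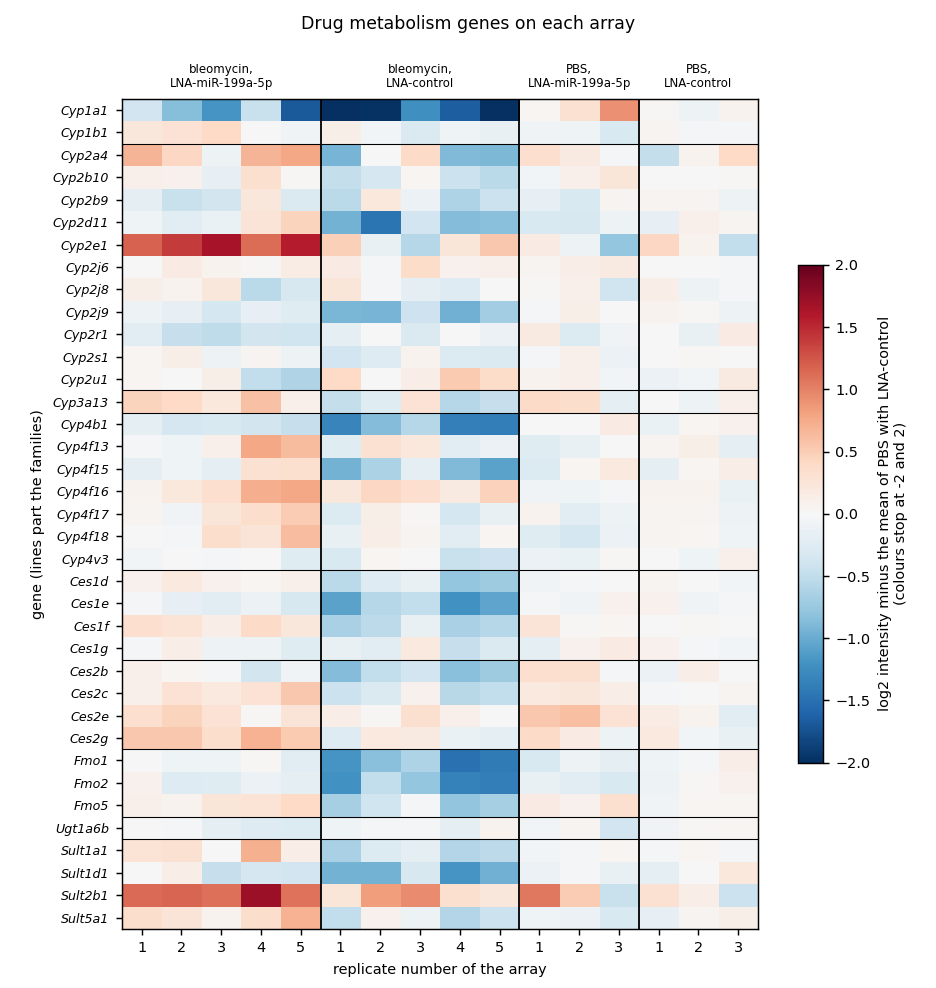
Log2 intensity of the 37 genes (rows, parted by family) on each of the 16 arrays (columns, by group and replicate number), as the difference from the mean of PBS plus LNA-control; blue is lower, red is higher, and colours stop at -2 and 2. Most rows are pale with bleomycin and LNA-miR-199a-5p and blue with bleomycin and LNA-control, with Cyp1a1 blue in both and Cyp2e1 and Sult2b1 red with LNA-miR-199a-5p.

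The heat map of single arrays shows that the bleomycin arrays with LNA-control were not alike. Relative to the mean of PBS plus LNA-control, the median over the 37 genes was 0.06, 0.06, 0.01, 0.05 and 0.11 on replicates 1 to 5 of bleomycin plus LNA-miR-199a-5p, and -0.47, -0.22, -0.11, -0.55 and -0.44 on replicates 1 to 5 of bleomycin plus LNA-control. On the PBS arrays with LNA-miR-199a-5p it was -0.03, 0.03 and -0.04. Replicates 2 and 3 of bleomycin plus LNA-control were nearest to the PBS lungs. Within that group, replicate 3 held the highest value for 22 of the 37 genes and replicate 4 the lowest for 18. Replicate 5, which has thymocyte markers at 6.66, was also low, and its RNA integrity number of 7 was the lowest of all arrays.

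**Figure D2:**
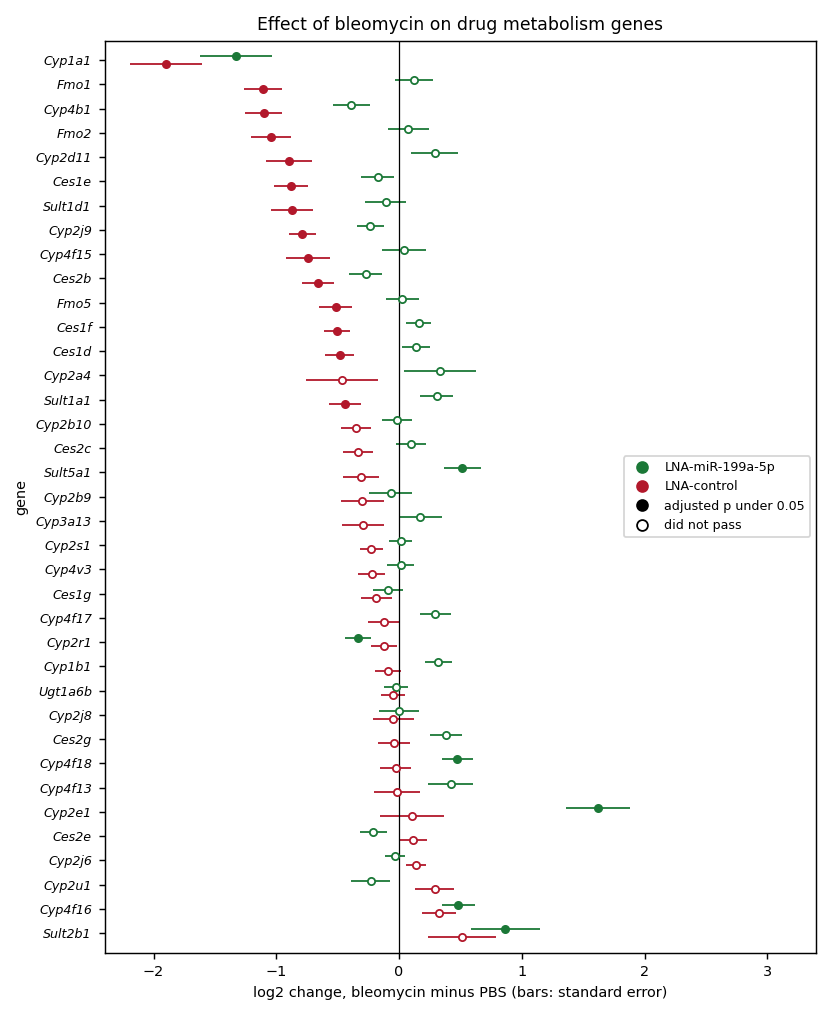
Log2 change of each of the 37 genes after bleomycin relative to PBS, with LNA-miR-199a-5p (green) and with LNA-control (red); bars are standard errors from limma, and filled points passed an adjusted p under 0.05. The filled red points lie to the left of 0 (14 genes), while Cyp1a1 and Cyp2r1 are the filled green points left of 0.

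Cyp1a1, the P450 that oxidises polycyclic aromatic hydrocarbons and is the textbook target of the aryl hydrocarbon receptor, was the gene that bleomycin lowered under both LNAs. Its log2 intensity was 8.65, 8.18, 7.85, 8.59 and 7.35 in bleomycin plus LNA-miR-199a-5p and 6.90, 7.05, 7.81, 7.38 and 6.51 in bleomycin plus LNA-control. It was 9.08, 9.34 and 9.94 in PBS plus LNA-miR-199a-5p and 9.06, 8.93 and 9.10 in PBS plus LNA-control. Every bleomycin array lay below every PBS array, and the bleomycin groups overlapped each other. The fall was -1.33 ± 0.29 with LNA-miR-199a-5p (2.51-fold, adjusted p = 0.0121) and -1.90 ± 0.29 with LNA-control (3.74-fold, adjusted p = 0.000299). Between the bleomycin lungs Cyp1a1 was higher by 0.99 ± 0.26 with LNA-miR-199a-5p (adjusted p = 0.00997), and without the thymocyte-rich arrays this was 1.00 with an adjusted p = 0.0504. The difference between its bleomycin effects was 0.57 ± 0.42 and did not pass (adjusted p = 0.451). Without replicate 3 of PBS plus LNA-miR-199a-5p, its highest array, the fall with LNA-miR-199a-5p was -1.09 and no longer passed (adjusted p = 0.0563).

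Cyp1b1 is a related P450 of extrahepatic tissues and passed in no comparison. It read 8.85, 8.91, 9.03, 8.62 and 8.57 in bleomycin plus LNA-miR-199a-5p, 8.75, 8.58, 8.35, 8.54 and 8.49 in bleomycin plus LNA-control, 8.56, 8.54 and 8.33 in PBS plus LNA-miR-199a-5p and 8.69, 8.62 and 8.59 in PBS plus LNA-control. Its changes after bleomycin were 0.32 ± 0.11 with LNA-miR-199a-5p (adjusted p = 0.0606) and -0.09 ± 0.11 with LNA-control (adjusted p = 0.652).

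The receptor itself, Ahr, was among the 14 regulators of xenobiotic genes measured. It averaged 12.14 ± 0.06 in bleomycin plus LNA-miR-199a-5p and 12.21 ± 0.10 in bleomycin plus LNA-control (SD, n = 5 each), against 12.52 ± 0.04 in PBS plus LNA-miR-199a-5p and 12.93 ± 0.03 in PBS plus LNA-control (SD, n = 3 each). Ahr fell after bleomycin by 0.38 on the log2 scale with LNA-miR-199a-5p (adjusted p = 0.00597) and by 0.72 with LNA-control (adjusted p = 2.92e-06). In PBS lungs the difference in Ahr between the LNAs was -0.41 ± 0.08 (adjusted p = 0.0754), and its bleomycin effects differed by 0.34 ± 0.10 (adjusted p = 0.0439). The partner Arnt and the genes Ahrr and Tiparp, which the receptor induces, did not pass in any comparison, with Tiparp at -0.31 and -0.28 after bleomycin plus LNA-miR-199a-5p and with LNA-control.

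The core of the response element that the receptor binds, TNGCGTG, was searched on both strands in the 300 bases around the start site (250 before, 50 after) of the 30 genes with a RefSeq promoter in GRCm38.p6. It was in 1 of the 30, Sult1d1, and in 5.07% of all 32851 promoters. The window of Cyp1a1 does not hold these letters, which says nothing of elements farther out. Both windows are shown, Cyp1a1 for its fall under both LNAs and Sult1d1 for the match, which is in capitals (its reverse complement, as printed) and begins 47 bases before the start site. Cyp1a1 is at chr9:57697363-57697662 on the plus strand and Sult1d1 at chr5:87568957-87569256 on the minus strand.
Cyp1a1: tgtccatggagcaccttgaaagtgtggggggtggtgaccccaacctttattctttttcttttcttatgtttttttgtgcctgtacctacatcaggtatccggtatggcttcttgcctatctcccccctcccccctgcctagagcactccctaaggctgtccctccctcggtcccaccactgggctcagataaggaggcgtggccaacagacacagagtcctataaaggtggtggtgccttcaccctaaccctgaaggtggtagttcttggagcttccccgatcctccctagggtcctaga
Sult1d1: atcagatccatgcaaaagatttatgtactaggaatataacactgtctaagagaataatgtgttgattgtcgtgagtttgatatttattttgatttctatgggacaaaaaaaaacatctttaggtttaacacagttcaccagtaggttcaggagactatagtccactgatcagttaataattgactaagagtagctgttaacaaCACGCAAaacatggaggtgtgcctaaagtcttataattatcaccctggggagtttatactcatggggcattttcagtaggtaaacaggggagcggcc

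Among the Cyp2 genes, Cyp2e1 stood out. It encodes the P450 that oxidises ethanol and small solvents and is also expressed in fat. Its log2 intensity was 12.92, 13.15, 13.39, 12.86 and 13.32 in bleomycin plus LNA-miR-199a-5p and 12.23, 11.60, 11.17, 11.98 and 12.28 in bleomycin plus LNA-control. The PBS arrays read 11.91, 11.64 and 10.98 with LNA-miR-199a-5p and 12.15, 11.82 and 11.26 with LNA-control. All 5 arrays of bleomycin plus LNA-miR-199a-5p lay above all 11 others, which overlapped one another. The rise after bleomycin was 1.62 ± 0.26 with LNA-miR-199a-5p (3.07-fold, adjusted p = 0.00362), against 0.11 ± 0.26 with LNA-control (adjusted p = 0.847). The difference between these effects was 1.51 ± 0.37 (adjusted p = 0.023), and between the bleomycin lungs Cyp2e1 was 2.42-fold higher with LNA-miR-199a-5p (1.28 ± 0.23, adjusted p = 0.000843). The difference between the effects did not pass when replicate 3 of PBS plus LNA-miR-199a-5p was left out (1.25, adjusted p = 0.0562), nor without replicate 1 (1.31, adjusted p = 0.0661) or replicate 2 (1.48, adjusted p = 0.0645) of PBS plus LNA-control.

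Fat transcripts varied beside Cyp2e1, in part in the same way. Adipoq, the adiponectin gene, read 12.26 to 12.69 in bleomycin plus LNA-miR-199a-5p and 11.02 to 11.84 in bleomycin plus LNA-control, and its lowest values, 9.99 and 10.46, were on replicate 3 of PBS plus LNA-miR-199a-5p and with LNA-control, where Cyp2e1 was also lowest in each PBS group. Of 12 fat markers, 5 rose and 0 fell after bleomycin plus LNA-miR-199a-5p, 0 changed with LNA-control, and 5 were higher and 0 lower with LNA-miR-199a-5p between the bleomycin lungs. Over all genes the shares higher and lower were 7.31% and 6.04%, 9.6% and 7.9%, and 13.4% and 11.4% in that order. The list averaged 11.06 to 11.40 in bleomycin plus LNA-miR-199a-5p, 10.22 to 10.70 in bleomycin plus LNA-control, 9.15 to 11.50 in PBS plus LNA-miR-199a-5p and 9.24 to 10.61 in PBS plus LNA-control. On replicates 1 and 2 of PBS plus LNA-miR-199a-5p the list was high, at 11.50 and 11.02, while Cyp2e1 was 11.91 and 11.64, below all 5 arrays of bleomycin plus LNA-miR-199a-5p. The markers of the list were not alike. Between the LNAs in PBS lungs Ucp1 and Cidea each differed by 1.65, against 0.17, -0.11 and -0.16 for Adipoq, Cfd and Retn, none called. Of the 5 that rose after bleomycin plus LNA-miR-199a-5p, Adipoq, Cfd, Retn and Cidec changed by 1.39, 1.30, 1.25 and 0.86. The part of fat in the Cyp2e1 result was not tested. Without the 2 fat-poor PBS arrays the rise of Cyp2e1 after bleomycin plus LNA-miR-199a-5p was 1.35 (adjusted p = 0.0233).

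**Figure D3:**
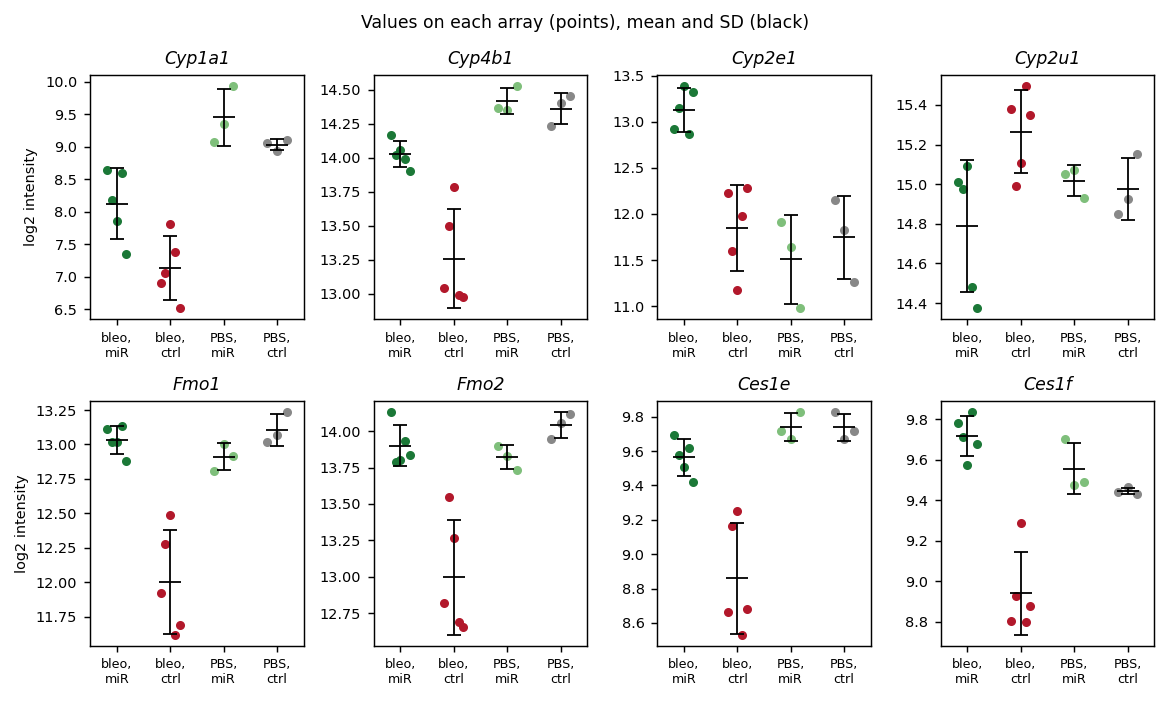
Log2 intensity of 8 genes on each array, in bleomycin plus LNA-miR-199a-5p (bleo, miR), bleomycin plus LNA-control (bleo, ctrl), PBS plus LNA-miR-199a-5p (PBS, miR) and PBS plus LNA-control (PBS, ctrl); points are arrays, black lines the mean and SD, and each panel has its own axis. Fmo1, Fmo2, Ces1e and Ces1f are lowest in bleomycin plus LNA-control with no overlap, Cyp2e1 is highest in bleomycin plus LNA-miR-199a-5p, and Cyp2u1 overlaps between the groups.

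Other Cyp2 genes fell with bleomycin under LNA-control. Cyp2d11, of the mouse 2d cluster, read 10.05, 9.93, 10.01, 10.40 and 10.60 in bleomycin plus LNA-miR-199a-5p and 9.19, 8.69, 9.76, 9.28 and 9.30 in bleomycin plus LNA-control, against 9.85, 9.83 and 10.05 in PBS plus LNA-miR-199a-5p and 9.98, 10.25 and 10.20 in PBS plus LNA-control. Every bleomycin array with LNA-control was below every other array. The change was 0.29 ± 0.19 with LNA-miR-199a-5p (adjusted p = 0.32) and -0.90 ± 0.19 with LNA-control (adjusted p = 0.00293), and the difference of 1.19 ± 0.27 passed (adjusted p = 0.015). It lost that call without the thymocyte-rich arrays (adjusted p = 0.0537) and without the fat-poor PBS arrays (adjusted p = 0.0556).

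Cyp2j9, a P450 of the arachidonic acid-metabolising 2j group, read 10.01, 9.95, 9.75, 9.95 and 9.87 in bleomycin plus LNA-miR-199a-5p and 9.19, 9.17, 9.69, 9.14 and 9.41 in bleomycin plus LNA-control. It read 10.08, 10.22 and 10.12 in PBS plus LNA-miR-199a-5p and 10.18, 10.13 and 10.01 in PBS plus LNA-control. It fell by 0.79 on the log2 scale with LNA-control (adjusted p = 0.000113), against a change of -0.23 ± 0.11 with LNA-miR-199a-5p (adjusted p = 0.163). In RefSeq order the genes Cyp2j8, Cyp2j6 and Cyp2j9 lie next to one another on chromosome 4. Cyp2j8 and Cyp2j6 did not share the fall, with -0.05 ± 0.17 and 0.14 ± 0.08 after bleomycin plus LNA-control (adjusted p = 0.897 and 0.288).

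Cyp2b10, a P450 induced by drugs in mouse liver through the receptor CAR, read 15.49, 15.47, 15.22, 15.70 and 15.41 in bleomycin plus LNA-miR-199a-5p, 14.90, 15.05, 15.43, 14.96 and 14.84 in bleomycin plus LNA-control, 15.32, 15.48 and 15.63 in PBS plus LNA-miR-199a-5p and 15.37, 15.37 and 15.41 in PBS plus LNA-control. The bleomycin groups overlapped. It was higher by 0.43 ± 0.11 with LNA-miR-199a-5p between these groups (adjusted p = 0.00869) and had -0.35 ± 0.12 after bleomycin plus LNA-control (adjusted p = 0.0636). Under other settings of the limma fit the call between the bleomycin groups was lost in 2 (adjusted p up to 0.0861). Cyp2a4, a steroid hydroxylase, had a wide spread in bleomycin plus LNA-control. It read 13.45, 13.20, 12.68, 13.46 and 13.55 in bleomycin plus LNA-miR-199a-5p and 11.85, 12.79, 13.16, 11.89 and 11.87 in bleomycin plus LNA-control, against 13.11, 12.95 and 12.73 in PBS plus LNA-miR-199a-5p and 12.30, 12.85 and 13.18 in PBS plus LNA-control. The difference was 0.95 ± 0.25 (adjusted p = 0.012) and was 0.66 without the thymocyte-rich arrays (adjusted p = 0.133).

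Cyp2u1 and Cyp2r1 went the other way between the bleomycin lungs. Cyp2u1, a fatty acid hydroxylase, read 15.01, 14.98, 15.09, 14.48 and 14.37 in bleomycin plus LNA-miR-199a-5p and 15.38, 14.99, 15.11, 15.50 and 15.35 in bleomycin plus LNA-control, against 15.05, 15.07 and 14.93 in PBS plus LNA-miR-199a-5p and 14.85, 14.92 and 15.15 in PBS plus LNA-control. Replicates 4 and 5 with LNA-miR-199a-5p were the low ones, and the other arrays overlapped. The difference of -0.48 ± 0.14 passed (adjusted p = 0.0189) but not without the thymocyte-rich arrays (-0.36, adjusted p = 0.157), without replicate 4 of bleomycin plus LNA-miR-199a-5p (adjusted p = 0.0531), without replicate 4 of bleomycin plus LNA-control (adjusted p = 0.0556) or with the RNA integrity number as a covariate (adjusted p = 0.115). Cyp2r1, a vitamin D 25-hydroxylase, read 8.24, 8.00, 7.95, 8.10 and 8.06 in bleomycin plus LNA-miR-199a-5p, 8.27, 8.46, 8.17, 8.46 and 8.34 in bleomycin plus LNA-control, 8.64, 8.19 and 8.39 in PBS plus LNA-miR-199a-5p and 8.45, 8.31 and 8.63 in PBS plus LNA-control. Neighbouring groups overlapped. Its adjusted p was 0.0489 for bleomycin plus LNA-miR-199a-5p and 0.0418 between the bleomycin lungs, and 0.107 and 0.156 without the fat-poor PBS arrays and without the thymocyte-rich arrays in these comparisons.

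Cyp2s1, Cyp2b9, Cyp2j6 and Cyp2j8 passed in no comparison. Cyp2s1, an epithelial P450, read 14.31, 14.39, 14.17, 14.32 and 14.17 in bleomycin plus LNA-miR-199a-5p, 13.89, 14.02, 14.34, 14.00 and 13.98 in bleomycin plus LNA-control, 14.24, 14.38 and 14.16 in PBS plus LNA-miR-199a-5p and 14.26, 14.30 and 14.26 in PBS plus LNA-control. Replicate 3 was the high array of bleomycin plus LNA-control. Cyp3a13, the 1 gene of family 3, had 8.55, 8.51, 8.32, 8.68 and 8.21 in bleomycin plus LNA-miR-199a-5p, 7.63, 7.86, 8.39, 7.53 and 7.65 in bleomycin plus LNA-control, 8.48, 8.45 and 7.92 in PBS plus LNA-miR-199a-5p and 8.10, 8.01 and 8.20 in PBS plus LNA-control. The bleomycin groups overlapped, with a difference of 0.64 ± 0.15 (adjusted p = 0.00577) that was 0.49 without the thymocyte-rich arrays (adjusted p = 0.074).

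Cyp4b1, the lung P450 that turns furans and aromatic amines into reactive products, fell with clear separation under LNA-control. It had 14.17, 14.02, 14.06, 13.99 and 13.90 in bleomycin plus LNA-miR-199a-5p and 13.04, 13.50, 13.78, 12.99 and 12.98 in bleomycin plus LNA-control. The PBS arrays read 14.37, 14.35 and 14.53 with LNA-miR-199a-5p and 14.23, 14.40 and 14.45 with LNA-control. Under either LNA the bleomycin arrays lay below the PBS arrays, by more with LNA-control. The change was -0.39 ± 0.15 with LNA-miR-199a-5p (adjusted p = 0.0943) and -1.10 ± 0.15 with LNA-control (2.15-fold, adjusted p = 0.000103), and Cyp4b1 was 1.70-fold higher with LNA-miR-199a-5p between the bleomycin lungs (0.77 ± 0.13, adjusted p = 0.000657). The difference between its bleomycin effects, 0.71 ± 0.21, did not pass (adjusted p = 0.056).

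The Cyp4f genes, which hydroxylate leukotrienes and other eicosanoids, split. Cyp4f15 read 8.67, 8.79, 8.69, 9.18 and 9.19 in bleomycin plus LNA-miR-199a-5p and 7.93, 8.24, 8.67, 8.00 and 7.81 in bleomycin plus LNA-control, against 8.61, 8.92 and 9.07 in PBS plus LNA-miR-199a-5p and 8.69, 8.92 and 9.01 in PBS plus LNA-control. It fell by 0.74 on the log2 scale with LNA-control (adjusted p = 0.00838). That call was lost without the thymocyte-rich arrays (adjusted p = 0.0651) and without the fat-poor PBS arrays (adjusted p = 0.0507). Cyp4f16 read 8.53, 8.67, 8.80, 9.19 and 9.23 in bleomycin plus LNA-miR-199a-5p, 8.68, 8.88, 8.79, 8.65 and 8.92 in bleomycin plus LNA-control, 8.39, 8.38 and 8.44 in PBS plus LNA-miR-199a-5p and 8.52, 8.52 and 8.33 in PBS plus LNA-control, and rose by 0.48 ± 0.14 with LNA-miR-199a-5p (adjusted p = 0.0297). Cyp4f18, the leukotriene B4 hydroxylase of mouse neutrophils, read 11.62, 11.61, 11.98, 11.88 and 12.23 in bleomycin plus LNA-miR-199a-5p, 11.47, 11.76, 11.67, 11.42 and 11.66 in bleomycin plus LNA-control, 11.39, 11.27 and 11.51 in PBS plus LNA-miR-199a-5p and 11.67, 11.66 and 11.54 in PBS plus LNA-control, and rose by 0.47 ± 0.13 with LNA-miR-199a-5p (adjusted p = 0.0242). In both genes every bleomycin array with LNA-miR-199a-5p was above every PBS array with that LNA. Neither of these rises passed without the fat-poor PBS arrays (adjusted p = 0.0812 for Cyp4f16 and 0.0555 for Cyp4f18). Cyp4f17 lies next to Cyp4f16 on chromosome 17, with 2 genes between Cyp4f16 and Cyp4f15. On this stretch the changes after bleomycin plus LNA-control were -0.12 for Cyp4f17 and 0.32 for Cyp4f16, neither called, and -0.74 for Cyp4f15. Cyp4f13 and the fatty acid hydroxylase gene Cyp4v3 passed in no comparison.

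All 3 flavin-containing monooxygenase genes fell after bleomycin plus LNA-control. These enzymes oxidise nitrogen and sulfur in drugs, and Fmo2 is the main form of the lung in most mammals. Fmo1 had 13.11, 13.02, 13.02, 13.14 and 12.88 in bleomycin plus LNA-miR-199a-5p and 11.92, 12.28, 12.49, 11.62 and 11.69 in bleomycin plus LNA-control. In PBS lungs it was 12.81, 13.01 and 12.92 with LNA-miR-199a-5p and 13.02, 13.07 and 13.24 with LNA-control. No bleomycin array with LNA-control reached any other array. The change was 0.12 ± 0.16 with LNA-miR-199a-5p (adjusted p = 0.639) and -1.11 ± 0.16 with LNA-control (2.15-fold, adjusted p = 0.000123), and the difference of 1.23 ± 0.22 passed (adjusted p = 0.00429).

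Fmo2 showed the same picture. It had 14.13, 13.79, 13.80, 13.93 and 13.84 in bleomycin plus LNA-miR-199a-5p and 12.82, 13.55, 13.27, 12.69 and 12.66 in bleomycin plus LNA-control, against 13.90, 13.83 and 13.74 in PBS plus LNA-miR-199a-5p and 13.94, 14.06 and 14.12 in PBS plus LNA-control. It changed by 0.08 ± 0.16 with LNA-miR-199a-5p (adjusted p = 0.797) and -1.04 ± 0.16 with LNA-control (2.06-fold, adjusted p = 0.000324), with a difference of 1.12 ± 0.23 (adjusted p = 0.00984). Fmo1 and Fmo2 are next to each other on chromosome 1. Fmo5, a distant member of the family, read 10.99, 10.94, 11.12, 11.16 and 11.27 in bleomycin plus LNA-miR-199a-5p and 10.21, 10.48, 10.83, 10.09 and 10.22 in bleomycin plus LNA-control, against 11.05, 10.97 and 11.20 in PBS plus LNA-miR-199a-5p and 10.81, 10.92 and 10.91 in PBS plus LNA-control. Replicate 3 of bleomycin plus LNA-control reached the range of PBS plus LNA-control. Its fall of 0.51 on the log2 scale (adjusted p = 0.0133) did not pass without the thymocyte-rich arrays (adjusted p = 0.102).

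Carboxylesterases hydrolyse ester and amide drugs and, in the Ces1 group, neutral lipids. Ces1e had 9.70, 9.58, 9.51, 9.62 and 9.42 in bleomycin plus LNA-miR-199a-5p and 8.67, 9.16, 9.25, 8.53 and 8.68 in bleomycin plus LNA-control, against 9.72, 9.67 and 9.83 in PBS plus LNA-miR-199a-5p and 9.83, 9.67 and 9.72 in PBS plus LNA-control. All 5 bleomycin arrays with LNA-control were lower than all others. The change was -0.18 ± 0.14 with LNA-miR-199a-5p (adjusted p = 0.42) and -0.88 ± 0.14 with LNA-control (adjusted p = 0.000325).

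Ces1f had 9.78, 9.71, 9.58, 9.84 and 9.68 in bleomycin plus LNA-miR-199a-5p and 8.80, 8.93, 9.29, 8.80 and 8.88 in bleomycin plus LNA-control, against 9.70, 9.47 and 9.49 in PBS plus LNA-miR-199a-5p and 9.44, 9.46 and 9.43 in PBS plus LNA-control. Between the bleomycin groups it had the smallest adjusted p of the 37 genes (0.78 ± 0.09, adjusted p = 2.53e-05), and it changed by 0.16 ± 0.10 with LNA-miR-199a-5p (adjusted p = 0.309) and -0.51 ± 0.10 with LNA-control (adjusted p = 0.00234). Ces1d, the lung and fat carboxylesterase that hydrolyses triacylglycerol, read 13.90, 14.01, 13.90, 13.87 and 13.93 in bleomycin plus LNA-miR-199a-5p and 13.28, 13.56, 13.68, 13.06 and 13.11 in bleomycin plus LNA-control, against 13.75, 13.80 and 13.82 in PBS plus LNA-miR-199a-5p and 13.88, 13.83 and 13.76 in PBS plus LNA-control. The arrays of bleomycin plus LNA-control were all below the others and spread more widely (SD 0.27) than those of bleomycin plus LNA-miR-199a-5p (SD 0.06). Ces1d fell by 0.48 on the log2 scale with LNA-control (adjusted p = 0.0075).

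Ces1d, Ces1e, Ces1f and Ces1g stand in a row on chromosome 8. The fourth did not pass in any comparison: Ces1g had -0.18 ± 0.12 after bleomycin plus LNA-control (adjusted p = 0.365). Of the Ces2 genes, which neighbour one another on the same chromosome, Ces2b fell with LNA-control by 0.66 on the log2 scale (adjusted p = 0.002), with 8.66, 8.59, 8.51, 8.19 and 8.48 in bleomycin plus LNA-miR-199a-5p, 7.68, 8.06, 8.16, 7.71 and 7.84 in bleomycin plus LNA-control, 8.89, 8.87 and 8.51 in PBS plus LNA-miR-199a-5p and 8.43, 8.68 and 8.54 in PBS plus LNA-control. Ces2c and Ces2g had -0.33 ± 0.12 and -0.04 ± 0.13 in that comparison, and were higher by 0.62 and 0.58 with LNA-miR-199a-5p between the bleomycin lungs (adjusted p = 0.000679 and 0.00165). Ces2e read 9.16, 9.28, 9.11, 8.85 and 9.08 in bleomycin plus LNA-miR-199a-5p and 8.96, 8.85, 9.15, 8.93 and 8.84 in bleomycin plus LNA-control, against 9.37, 9.43 and 9.12 in PBS plus LNA-miR-199a-5p and 8.98, 8.90 and 8.61 in PBS plus LNA-control, and passed in no comparison.

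Of the sulfotransferases, Sult1d1, which acts on catecholamines, and Sult1a1, which acts on phenols, fell with LNA-control. Sult1d1 had 9.52, 9.65, 9.06, 9.19 and 9.15 in bleomycin plus LNA-miR-199a-5p and 8.58, 8.58, 9.20, 8.34 and 8.56 in bleomycin plus LNA-control, against 9.40, 9.51 and 9.37 in PBS plus LNA-miR-199a-5p and 9.33, 9.51 and 9.73 in PBS plus LNA-control. It changed by -0.11 ± 0.17 with LNA-miR-199a-5p (adjusted p = 0.707) and -0.87 ± 0.17 with LNA-control (adjusted p = 0.0016). Sult1a1 had 12.71, 12.73, 12.44, 13.14 and 12.56 in bleomycin plus LNA-miR-199a-5p and 11.79, 12.16, 12.25, 11.84 and 11.91 in bleomycin plus LNA-control, with 12.37, 12.39 and 12.47 in PBS plus LNA-miR-199a-5p and 12.42, 12.47 and 12.41 in PBS plus LNA-control. It was above the PBS range on 4 of 5 arrays of bleomycin plus LNA-miR-199a-5p and below it on all 5 of bleomycin plus LNA-control. The changes of 0.31 ± 0.13 with LNA-miR-199a-5p (adjusted p = 0.133) and -0.44 ± 0.13 with LNA-control (adjusted p = 0.0292) differed by 0.75 ± 0.19 (adjusted p = 0.0268).

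Sult5a1 and Sult2b1 rose with bleomycin under LNA-miR-199a-5p. Sult5a1, whose substrates are little known, had 9.19, 9.10, 8.91, 9.18 and 9.53 in bleomycin plus LNA-miR-199a-5p, 8.34, 8.93, 8.73, 8.25 and 8.40 in bleomycin plus LNA-control, 8.75, 8.72 and 8.53 in PBS plus LNA-miR-199a-5p and 8.67, 8.89 and 8.96 in PBS plus LNA-control. It rose by 0.52 ± 0.15 with LNA-miR-199a-5p (adjusted p = 0.0342; 0.137 without the fat-poor PBS arrays), against -0.31 ± 0.15 with LNA-control (adjusted p = 0.186). Sult2b1, a cholesterol sulfotransferase of squamous epithelium and skin, had 9.63, 9.65, 9.59, 10.20 and 9.57 in bleomycin plus LNA-miR-199a-5p, 8.72, 9.33, 9.43, 8.81 and 8.71 in bleomycin plus LNA-control, 9.55, 9.00 and 8.03 in PBS plus LNA-miR-199a-5p and 8.78, 8.62 and 8.05 in PBS plus LNA-control.

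The lowest Sult2b1 value of each PBS group was on replicate 3, where the 9 squamous epithelium markers averaged 5.88 with LNA-miR-199a-5p and 8.28 with LNA-control. On the other arrays that list averaged 10.38 to 11.13 in bleomycin plus LNA-miR-199a-5p, 9.48 to 10.40 in bleomycin plus LNA-control, 9.96 and 10.67 in PBS plus LNA-miR-199a-5p and 9.24 and 9.85 in PBS plus LNA-control. Sult2b1 rose by 0.87 ± 0.28 with LNA-miR-199a-5p (adjusted p = 0.0492), and without those replicates the value was 0.45 (adjusted p = 0.223). With LNA-control its change was 0.51 ± 0.28 (adjusted p = 0.243). The difference between its bleomycin effects, 0.35 ± 0.39, did not pass (adjusted p = 0.647).

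Ugt1a6b, the phenol glucuronosyltransferase and the 1 gene of its family above the minimum, did not pass in any comparison with the probe used. It read 12.92, 12.90, 12.73, 12.67 and 12.66 in bleomycin plus LNA-miR-199a-5p, 12.84, 12.90, 12.89, 12.76 and 13.00 in bleomycin plus LNA-control, 12.87, 12.99 and 12.55 in PBS plus LNA-miR-199a-5p and 12.86, 12.96 and 12.98 in PBS plus LNA-control. Ugt1a genes share exons, and several of the other genes have close relatives in their clusters (Cyp2a4 and Cyp2a5, the Cyp2b, Cyp2d and Cyp2j groups, Ces1 and Ces2), so a probe may read more than 1 of them. Of the 37 genes 15 had several probes, and in no comparison was a called gene contradicted by another probe called the opposite way. Between the bleomycin lungs a second probe also passed for Ces2c, Cyp2a4, Cyp2e1, Fmo1, Fmo5 and Sult1a1. The dimmer second probe did not pass for Cyp3a13 (0.21), Cyp2r1 (-0.04), Cyp2u1 (-0.03) and Sult1d1 (-0.21). After bleomycin plus LNA-control a second probe of Ces2c and of Cyp3a13 was called lower, where the probe used was not. After bleomycin plus LNA-miR-199a-5p the second probe of Sult1d1 was called lower (-0.54, adjusted p = 0.0125 in limma). The dimmer probe of Ugt1a6b was called lower with LNA-miR-199a-5p between the bleomycin lungs (-0.33, adjusted p = 0.0132 in limma). A second probe of Fmo5 passed for the interaction (0.69, adjusted p = 0.0374 in limma), where the probe used did not.

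The minimum of 8 lay close to several genes. Just inside it were Ces1g at 8.08, Ces2c at 8.09 and Cyp3a13 at 8.16, and just outside Fmod at 7.96, Ces1h at 7.82 and Cyp4f39 at 7.70. Fmod, the fibromodulin gene, matches the symbol rule by its letters and is no monooxygenase. Since 10 of the 16 arrays are from bleomycin lungs, a gene that is high there passes more easily: Ces1h averaged 8.71 in bleomycin plus LNA-miR-199a-5p, 7.75 in bleomycin plus LNA-control, 7.37 in PBS plus LNA-miR-199a-5p and 6.89 in PBS plus LNA-control. Of the 90 genes below the minimum, 3 were called higher and 5 lower after bleomycin plus LNA-control, 2 higher and 2 lower after bleomycin plus LNA-miR-199a-5p, and 15 higher and 2 lower between the bleomycin lungs. Over all genes the shares higher and lower were 9.6% and 7.9%, 7.31% and 6.04%, and 13.4% and 11.4% in that order.

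For this and all following lists, the shares over all genes after bleomycin plus LNA-miR-199a-5p were 7.31% higher and 6.04% lower. They were 9.6% and 7.9% with LNA-control, and 13.4% and 11.4% between the bleomycin lungs. Of the genes around these enzymes, electron donors and cofactor makers moved little after bleomycin. Of 10 measured, 0 changed with LNA-miR-199a-5p and 2 fell with LNA-control: Pgrmc1, a haem-binding P450 partner (-0.47 ± 0.09, adjusted p = 0.00191), and Papss2, which makes the sulfate donor of the sulfotransferases (-0.36 ± 0.09, adjusted p = 0.0104). Between the bleomycin lungs 3 were higher and 0 lower with LNA-miR-199a-5p. The third was Por, the reductase that supplies electrons to microsomal P450s, with 13.65 to 14.09 in bleomycin plus LNA-miR-199a-5p and 12.86 to 13.57 in bleomycin plus LNA-control (0.65 ± 0.14, adjusted p = 0.00291).

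Other phase 1 genes, 28 measured, gave 2 higher and 1 lower after bleomycin plus LNA-miR-199a-5p, 4 higher and 8 lower with LNA-control, and 9 higher and 3 lower between the bleomycin lungs. Pon1, a lactonase, fell by 1.32 on the log2 scale with LNA-control (adjusted p = 2.44e-05), and Aox3, an aldehyde oxidase, by 1.07 (adjusted p = 0.000177). Akr1b8, an aldose reductase relative, rose by 0.92 ± 0.10 (adjusted p = 1.44e-05) and was lower by 1.01 ± 0.09 with LNA-miR-199a-5p between the bleomycin lungs (adjusted p = 1.65e-06).

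Other phase 2 genes, 27 measured, gave 3 higher and 2 lower after bleomycin plus LNA-miR-199a-5p, 2 higher and 6 lower with LNA-control, and 13 higher and 1 lower between the bleomycin lungs. The 13 were 12 glutathione transferases, among them Gsta3 (0.87 ± 0.13, adjusted p = 0.000212) and Gstz1 (0.53 ± 0.09, adjusted p = 0.000681), and the methyltransferase gene Inmt (1.21 ± 0.21, adjusted p = 0.000843). Among 16 drug transporters 2 rose and 0 fell with LNA-miR-199a-5p, 2 rose and 3 fell with LNA-control, and 4 were higher and 0 lower between the bleomycin lungs. Abcb1a, the P-glycoprotein gene, was one of these, with -0.65 ± 0.12 after bleomycin plus LNA-control (adjusted p = 0.000996) and 0.43 ± 0.10 between the bleomycin lungs (adjusted p = 0.00597).

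A list of Cyp2f2 and the P450 genes outside families 1 to 4 had 15 measured. It gave 1 higher and 2 lower after bleomycin with either LNA, and 3 higher and 3 lower between the bleomycin lungs. Cyp2f2 is also in the club cell list. Cyp7b1, an oxysterol hydroxylase, rose by 1.11 ± 0.21 with LNA-control (adjusted p = 0.00125) and was lower by 0.80 ± 0.18 with LNA-miR-199a-5p between the bleomycin lungs (adjusted p = 0.00416). Cyp26b1, which breaks down retinoic acid, changed by -2.31 ± 0.48 with LNA-miR-199a-5p (adjusted p = 0.00929) and -1.71 ± 0.48 with LNA-control (adjusted p = 0.0201). Cyp2f2, the abundant club cell P450, averaged 17.37 ± 0.16 in bleomycin plus LNA-miR-199a-5p, 17.08 ± 0.24 in bleomycin plus LNA-control (SD, n = 5 each), 17.26 ± 0.04 in PBS plus LNA-miR-199a-5p and 17.28 ± 0.02 in PBS plus LNA-control (SD, n = 3 each), near the top of the scale, and was not called in any comparison.

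Of the 14 regulators, 1 rose and 1 fell after bleomycin plus LNA-miR-199a-5p, 3 rose and 1 fell with LNA-control, and 4 were higher and 2 lower between the bleomycin lungs. The 2 lower ones were Hnf4a (-0.64 ± 0.10, adjusted p = 0.00033), a liver and gut transcription factor, and Nfe2l2 (-0.51 ± 0.10, adjusted p = 0.00193), the NRF2 gene of the oxidative stress response. The receptors that induce Cyp2b and Cyp3a genes, Nr1i3 and Nr1i2, passed in no comparison.

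**Figure D4:**
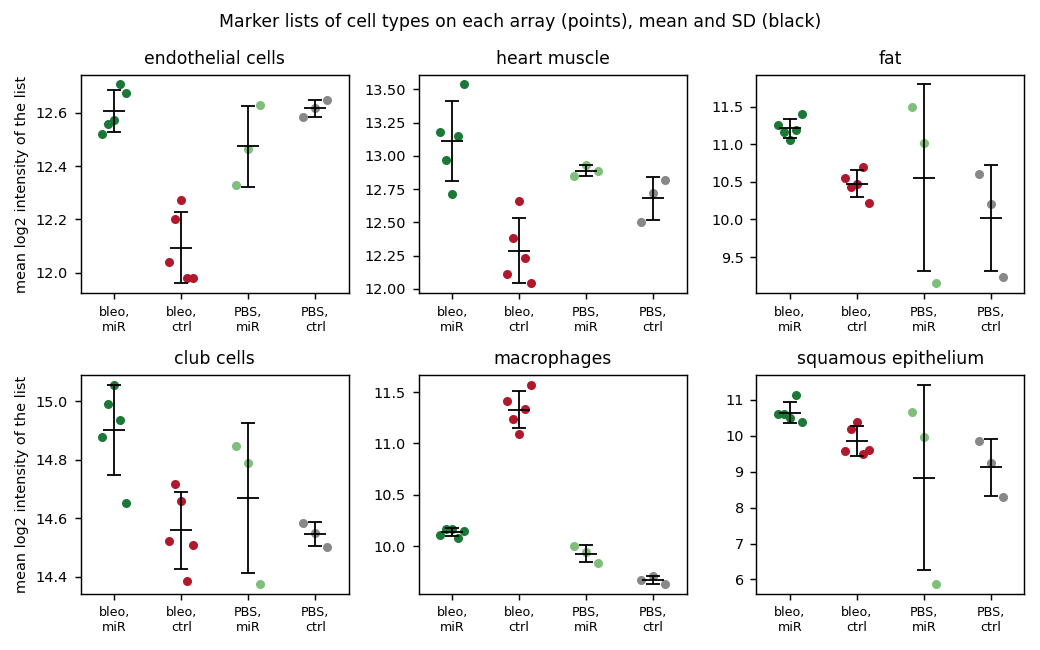
Mean log2 intensity of 6 lists of cell type markers on each array, in bleomycin plus LNA-miR-199a-5p (bleo, miR), bleomycin plus LNA-control (bleo, ctrl), PBS plus LNA-miR-199a-5p (PBS, miR) and PBS plus LNA-control (PBS, ctrl); points are arrays, black lines the mean and SD. Endothelial markers are lowest and macrophage markers highest in bleomycin plus LNA-control, and fat and squamous markers are lowest on 1 array of each PBS group.

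Markers of several cell types changed in the same comparisons as the drug metabolism genes. Of 12 endothelial markers, 2 rose and 0 fell after bleomycin plus LNA-miR-199a-5p, 0 rose and 9 fell with LNA-control, and 9 were higher and 0 lower between the bleomycin lungs. The list averaged 12.52 to 12.71 in bleomycin plus LNA-miR-199a-5p and 11.98 to 12.27 in bleomycin plus LNA-control, against 12.33 to 12.63 in PBS plus LNA-miR-199a-5p and 12.59 to 12.65 in PBS plus LNA-control. Replicates 2 and 3 were the highest arrays of bleomycin plus LNA-control for this list, and also for the heart muscle, squamous, club cell, ciliated cell, alveolar type 1, alveolar type 2 and fibroblast lists. Heart muscle markers, 8 in number, gave 0 changes with LNA-miR-199a-5p, 4 lower with LNA-control and 8 higher between the bleomycin lungs. Macrophage markers went the opposite way, with 3 of 10 higher and 0 lower after bleomycin plus LNA-miR-199a-5p, 8 higher and 0 lower with LNA-control, and 8 lower and 1 higher between the bleomycin lungs, at 10.08 to 10.17 in bleomycin plus LNA-miR-199a-5p and 11.10 to 11.57 in bleomycin plus LNA-control.

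Of 10 fibroblast markers, 2 rose and 1 fell after bleomycin plus LNA-miR-199a-5p, 2 rose and 3 fell with LNA-control, and 6 were higher and 3 lower between the bleomycin lungs. The higher ones included Inmt (1.21 ± 0.21), which is also in the phase 2 list, and Dcn (0.48 ± 0.10), and the lower ones the collagen gene Col1a1 (-1.12 ± 0.14). Of 7 smooth muscle markers, 2 rose and 0 fell with LNA-miR-199a-5p, 1 rose and 0 fell with LNA-control, and 4 were higher and 0 lower between the bleomycin lungs, among them Des (0.81 ± 0.17) and Acta2 (0.61 ± 0.14), which encode muscle filament proteins.

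Of 11 club cell markers, 1 rose and 2 fell after bleomycin plus LNA-miR-199a-5p, 1 rose and 3 fell with LNA-control, and 4 were higher and 1 lower between the bleomycin lungs. Of 10 alveolar type 2 markers, 0 changed with LNA-miR-199a-5p, 1 rose and 2 fell with LNA-control, and 2 were higher and 0 lower between the bleomycin lungs. Of 9 alveolar type 1 markers, 0 changed with LNA-miR-199a-5p, 1 rose and 2 fell with LNA-control, and 4 were higher and 1 lower between the bleomycin lungs. Of 10 ciliated cell markers, 0 rose and 2 fell with LNA-miR-199a-5p, 0 rose and 3 fell with LNA-control, and 1 was higher and 1 lower between the bleomycin lungs. Liver markers averaged near the bottom of the scale in all groups, though some were called. With LNA-control Ahsg (1.42 ± 0.18) and Alb (0.34 ± 0.09) rose after bleomycin and Tat (-0.37 ± 0.11) fell. With LNA-miR-199a-5p Ahsg rose (0.56 ± 0.18). Between the bleomycin lungs Ahsg (-1.02 ± 0.15) and Alb (-0.24 ± 0.08) were lower. The other liver markers were not called in these comparisons. The part of the endothelial, heart muscle, macrophage, fibroblast, smooth muscle and epithelial transcripts in the changes of the drug metabolism genes was not tested.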

How the data were processed

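The deposited table holds log2 intensities of 62976 spots on 16 arrays, prepared by the authors with limma (no version given) per the submitters' processing notes. The deposited log2 values shared nearly one distribution: after sorting, arrays differed by at most 0.0974. The background correction, the scanner program and the build are not given in the sources used here. Gene names were present for 31465 probes and absent for 31511. Through 29036 accession matches 2933 symbols were updated, and the probe with the highest mean was kept for 6086 genes with several probes. Precision rests on how many arrays each group has, as intensities carry no read depth. Arrays of a group correlated at 0.989 or more.

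All 16 arrays and 20863 genes entered a single linear model of the 4 groups (lmFit and eBayes, limma 3.58.1 in R 4.3.3). Tests were two-sided and adjusted by Benjamini-Hochberg over all genes of a comparison, with calls at an adjusted p under 0.05. The code was tested on simulated data. Leaving out the thymocyte-rich or fat-poor arrays was chosen after seeing the data.

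The genes and lists were chosen with earlier results of these data known. Values on every array are given for the 10 called genes with the largest change in each comparison, the 5 genes with the highest mean and the brightest gene of each family. The other genes come from lists of the pathway and of cell types, naming up to 4 called ones per list and comparison with the smallest p, or markers a result turns on. The deviations of same-numbered arrays correlated at 0.411, 0.108 and 0.497 between the PBS groups. Between the other pairs of groups these correlations ran from -0.373 to 0.324.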

Additional observations from a re-analysis of the deposited data

Results flagged for a closer look

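In 74 groups of 5 arrays (37 genes, 2 bleomycin groups), 5 arrays lay far from the others of their group by Dixon's test, which chance does in about 1 in 20 groups. In bleomycin plus LNA-control, replicate 3 was the high array for Ces1f (9.29), Cyp2s1 (14.34) and Sult1d1 (9.20). In bleomycin plus LNA-miR-199a-5p, replicate 5 stood apart for Cyp4v3 (11.18) and replicate 4 for Sult2b1 (10.20).

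The bleomycin effect differed between the LNAs, by the interaction term in limma at an adjusted p under 0.05, for 10 genes. As the effect with LNA-miR-199a-5p minus that with LNA-control on the log2 scale, the differences were 1.51 for Cyp2e1, 1.23 for Fmo1, 1.19 for Cyp2d11 and 1.12 for Fmo2. They were 0.83 for Sult5a1, 0.75 for Sult1a1, 0.70 for Ces1e, 0.67 for Ces1f, 0.62 for Ces1d and 0.55 for Cyp2j9. In 16 fits that each left out 1 array, Cyp2j9 lost this call in 14, Ces1e in 12 and Ces1d in 9. Sult5a1 lost it in 8, Sult1a1 in 6, Cyp2e1 in 3, Cyp2d11 in 1, and Fmo1, Fmo2 and Ces1f in 0.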

How the results depend on the processing

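The 56 single-gene calls were recomputed under 30 other settings, some of which do not apply to every call. Of 1437 values 1232 stayed past the threshold, 205 did not and 0 reversed. Counts of called genes among the 37 were 14 for bleomycin plus LNA-control, 7 for bleomycin plus LNA-miR-199a-5p, 25 between the bleomycin lungs, 0 between the PBS lungs and 10 for the interaction. Leaving out 1 array gave 11 to 18, 2 to 8, 21 to 26, 0 to 0 and 3 to 15 in that order. Calls over all genes in these fits were 2293 to 3984, 1186 to 3534, 3785 to 5640, 2 to 121 and 632 to 2215. The labels do not say that the replicate numbers pair arrays. With the replicate number as a block the counts were 13, 2, 22, 0 and 7, where 2429, 663, 4542, 3 and 947 of all genes were called. With array weights they were 24 (2 higher, 22 lower), 6, 27, 1 and 20, while calls over all genes in that order were 6713, 2835, 5963, 394 and 3862, against 3651, 2786, 5188, 10 and 1462 without weights. With the RNA integrity number as a covariate they were 14, 2, 20, 0 and 5, where 3674, 1162, 2981, 11 and 733 of all genes were called. With only the arrays compared in the fit, bleomycin plus LNA-miR-199a-5p had 1, where 271 of all genes were called. With no minimum mean, over 127 genes, the counts were 22 (3 higher, 19 lower), 11, 42, 0 and 14. With a minimum of 10, over 14 genes, they were 6, 2, 10, 0 and 5. Fewer or more genes were counted here, in the same fit, where 3651, 2786, 5188, 10 and 1462 of 20863 genes were called. With no minimum, the share called was near that over all genes for bleomycin plus LNA-control. It was below it for bleomycin plus LNA-miR-199a-5p, and above it between the bleomycin lungs and for the interaction. With the genes under the median level left out of the fit, 31 of the 37 remained and the counts were 13, 7, 22, 0 and 12. In that fit 2763, 2498, 3620, 7 and 1305 of all genes left were called. Without the thymocyte-rich arrays the counts among the 37 were 10, 5, 17, 0 and 3, where 2258, 2314, 2356, 3 and 525 of all genes were called. Without the fat-poor PBS arrays they were 11, 1, 25, 0 and 2, where 2268, 791, 5164, 31 and 513 of all genes were called. Both settings were chosen after seeing the data and rest on fewer arrays. The cause of the other shifts was not tested. Genes near the bottom of the scale are limited by signal over background, which the deposited table does not give.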
